A study of Mus musculus with 4 samples.

Results

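Open chromatin was mapped by ATAC-seq, in which Tn5 transposase inserts sequencing adapters into open DNA, in nuclei from mouse hippocampi at postnatal day 0 (P0). Examined here were the intergenic peaks far from genes, meaning peaks whose summit lay outside every GENCODE gene body and more than 50 kb from every protein-coding transcription start site (TSS). Peaks within 2 kb of any TSS, peaks overlapping a CpG island and peaks with at least 50% of their bases soft-masked as repeats in mm10 were left out, and the sex chromosomes were not included. The rule kept 19226 of 115311 autosomal peaks in the 4 deposited lists (119365 peaks with the sex chromosomes). These far intergenic peaks merged over the lists into 10302 regions, of 56723 autosomal regions in all.

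The 4 libraries were 2 cKO (cKO1 and cKO2, by replicate number) and 2 Ctrl (Ctrl1 and Ctrl2). The cKO mice were Kdm2b Emx1-ΔCxxC: the floxed exon for the CxxC zinc finger of KDM2B, the domain that recognises unmethylated CpG-rich DNA, is removed by Emx1-Cre, whose activity is restricted to the dorsal telencephalon. Cells of the hippocampus from outside that lineage, such as interneurons, microglia and vessel cells, keep the exon. Ctrl mice were Kdm2b fl/+ or fl/fl, and the labels do not say which library had which. The labels name neural progenitor cells as the source, whereas titles and protocol name hippocampal tissue, which is followed here. No label gives sex, litter or batch, nor whether replicates were separate animals, so that every p-value below measures the spread between these libraries, which may be technical.

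Open chromatin far from genes commonly holds enhancers, stretches of DNA where transcription factors bind and act on a promoter elsewhere on the chromosome, often across other genes. In the developing hippocampus such factors include the NFI proteins, homeobox factors such as LHX2 and EMX2, and basic helix-loop-helix factors such as NEUROD2, which bind E-boxes. CTCF, by contrast, marks boundaries and loop anchors of chromatin domains. The nearest promoter is not always the target of a distal element, so gene names below only give a position.

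The sequences under the summits of some of the regions are given first. The first set lies nearest to genes of telencephalic transcription factors and of the Wnt pathway. It was chosen after its values were seen, as strong regions that each had a peak in Ctrl1 and both cKO libraries and a sequence with no other copy in the genome. Capitals mark matches, on either strand, to the NFI half-site TTGGCA, the E-boxes CAGCTG and CAGATG, and the homeobox core TAATTA. All sequences are from the plus strand of mm10 (GRCm38), 5′ to 3′.
Zeb2 (chr2:46242983-46243133): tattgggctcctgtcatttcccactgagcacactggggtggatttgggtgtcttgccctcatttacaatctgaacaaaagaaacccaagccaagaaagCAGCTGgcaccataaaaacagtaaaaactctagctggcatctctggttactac
Klf7 (chr1:64020828-64020978): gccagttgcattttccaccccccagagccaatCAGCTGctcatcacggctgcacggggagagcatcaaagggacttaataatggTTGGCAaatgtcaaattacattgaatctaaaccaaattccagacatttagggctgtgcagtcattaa
Bcl11a (chr11:24795736-24795886): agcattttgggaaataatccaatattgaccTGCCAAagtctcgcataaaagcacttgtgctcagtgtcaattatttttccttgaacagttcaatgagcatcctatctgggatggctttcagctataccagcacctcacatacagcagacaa
Myt1l (chr12:29291067-29291217): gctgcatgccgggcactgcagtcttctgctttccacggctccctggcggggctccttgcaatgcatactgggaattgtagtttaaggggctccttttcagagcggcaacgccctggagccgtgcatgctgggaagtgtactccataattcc
Nr2f1 (chr13:78937805-78937955): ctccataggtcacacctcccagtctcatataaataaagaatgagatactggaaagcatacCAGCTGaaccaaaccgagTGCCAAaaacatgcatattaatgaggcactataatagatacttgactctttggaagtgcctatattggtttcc
Zbtb18 (chr1:177573465-177573615): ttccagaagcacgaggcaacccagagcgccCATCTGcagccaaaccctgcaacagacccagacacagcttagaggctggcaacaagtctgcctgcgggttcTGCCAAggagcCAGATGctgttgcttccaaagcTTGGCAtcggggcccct
Foxp1 (chr6:98767936-98768086): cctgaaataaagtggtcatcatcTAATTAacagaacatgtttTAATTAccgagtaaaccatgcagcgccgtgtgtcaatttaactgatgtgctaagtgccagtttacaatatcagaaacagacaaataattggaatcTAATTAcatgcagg
Meis1 (chr11:18581419-18581569): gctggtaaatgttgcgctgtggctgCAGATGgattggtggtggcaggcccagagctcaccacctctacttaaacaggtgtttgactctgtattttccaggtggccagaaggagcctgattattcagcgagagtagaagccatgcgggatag
Fzd1 (chr5:4486187-4486337): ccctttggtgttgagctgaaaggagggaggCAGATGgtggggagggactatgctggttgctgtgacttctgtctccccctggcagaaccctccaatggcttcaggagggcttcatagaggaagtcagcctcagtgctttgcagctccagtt
Fzd1 (chr5:4496293-4496443): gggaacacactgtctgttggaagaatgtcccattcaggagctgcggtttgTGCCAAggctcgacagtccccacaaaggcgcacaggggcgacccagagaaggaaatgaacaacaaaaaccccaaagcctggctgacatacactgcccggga
Sfrp2 (chr3:83486398-83486548): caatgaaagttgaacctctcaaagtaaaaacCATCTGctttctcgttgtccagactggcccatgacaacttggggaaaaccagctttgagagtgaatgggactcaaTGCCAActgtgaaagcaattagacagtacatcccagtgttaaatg
Ctnnb1 (chr9:120759816-120759966): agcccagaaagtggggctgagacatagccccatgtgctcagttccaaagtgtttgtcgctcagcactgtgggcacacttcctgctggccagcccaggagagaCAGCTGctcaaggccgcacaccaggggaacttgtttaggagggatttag

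The second set holds 3 of the strongest regions found in all 4 lists and 2 of the strongest found in both cKO lists alone. Capitals have the same meaning. The windows named for Galc and Nxph1 lie on different chromosomes, yet the first and the reverse complement of the second share an identical run of 100 bp, and both align to the mitochondrial genome. The window near Tmem161b has no other copy.
Galc (chr12:97061511-97061611): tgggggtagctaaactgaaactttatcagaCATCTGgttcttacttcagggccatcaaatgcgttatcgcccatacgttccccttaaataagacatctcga
Arhgef26 (chr3:62159159-62159259): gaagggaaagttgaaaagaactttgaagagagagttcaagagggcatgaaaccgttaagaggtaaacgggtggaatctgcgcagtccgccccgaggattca
Tmem161b (chr13:84348093-84348193): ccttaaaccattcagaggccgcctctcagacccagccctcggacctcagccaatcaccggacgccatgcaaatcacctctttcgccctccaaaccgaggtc
Nxph1 (chr6:9889952-9890052): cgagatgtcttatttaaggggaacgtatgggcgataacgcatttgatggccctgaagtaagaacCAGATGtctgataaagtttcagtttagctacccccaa
Gm9376 (chr14:118317481-118317581): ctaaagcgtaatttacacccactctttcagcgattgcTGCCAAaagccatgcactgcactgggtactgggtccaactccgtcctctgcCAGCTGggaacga

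The third set shows 2 of the strongest regions with a match to the CTCF motif, which is in capitals here.
Bmper (chr9:23581099-23581299): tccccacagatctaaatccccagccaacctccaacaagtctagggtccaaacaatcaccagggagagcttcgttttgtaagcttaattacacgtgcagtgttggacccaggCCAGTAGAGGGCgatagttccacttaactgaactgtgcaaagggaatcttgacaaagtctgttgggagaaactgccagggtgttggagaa
Reep3 (chr10:66357813-66358013): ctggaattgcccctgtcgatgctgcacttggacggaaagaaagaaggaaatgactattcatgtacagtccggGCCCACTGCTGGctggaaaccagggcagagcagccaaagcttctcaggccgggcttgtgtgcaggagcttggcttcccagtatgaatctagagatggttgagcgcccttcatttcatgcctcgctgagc

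The lists differed widely in length and make-up before any class was chosen. They held 7037 to 46389 peaks, and the list of Ctrl2 was the shortest. Fragment totals were only estimated, from the lowest background and the shortest peak of each list. By this estimate Ctrl2 had the most, at 29.6 M against 14.6 to 19.4 M in the others (M, mega). The estimate was not checked against reads. Repeat-masked peaks away from promoters made up 54.7% of its autosomal peaks and 4.59 to 12.8% of the other lists. Of 12 marker genes of dorsal telencephalon and hippocampus, 11 had a promoter peak in Ctrl1, 7 in cKO1, 12 in cKO2 and 0 in Ctrl2, and 5, 4, 6 and 0 of 6 progenitor markers did in the same order. Interneuron markers had promoter peaks for 4, 1, 2 and 0 of 6 genes, oligodendrocyte markers for 2, 0, 1 and 0 of 4 and microglial and vessel markers for 1, 1, 0 and 0 of 6, again in that order, whereas 0 of 5 markers of other tissues had one in any list. The tissue named in the titles was therefore visible in 3 lists and could not be checked in Ctrl2, so each comparison of groups below is also given without that library.

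Far intergenic peaks were a sizeable class in 3 of the 4 lists. In Ctrl1, 8258 of 45082 autosomal peaks belonged to it (18.3%, 95% Wilson interval 18 to 18.7%). In cKO2 the number was 7831 of 43129 (18.2%, 17.8 to 18.5%) and in cKO1 it was 2886 of 20643 (14.0%, 13.5 to 14.5%). Ctrl2 stood apart with 251 of 6457 (3.89%, 3.44 to 4.39%). These intervals cover counting error alone. Among autosomal peaks that were not repeat-masked, the shares came closer together, at 19.3% in Ctrl1, 9.18% in Ctrl2, 16.2% in cKO1 and 19.4% in cKO2.

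**Figure D1:**
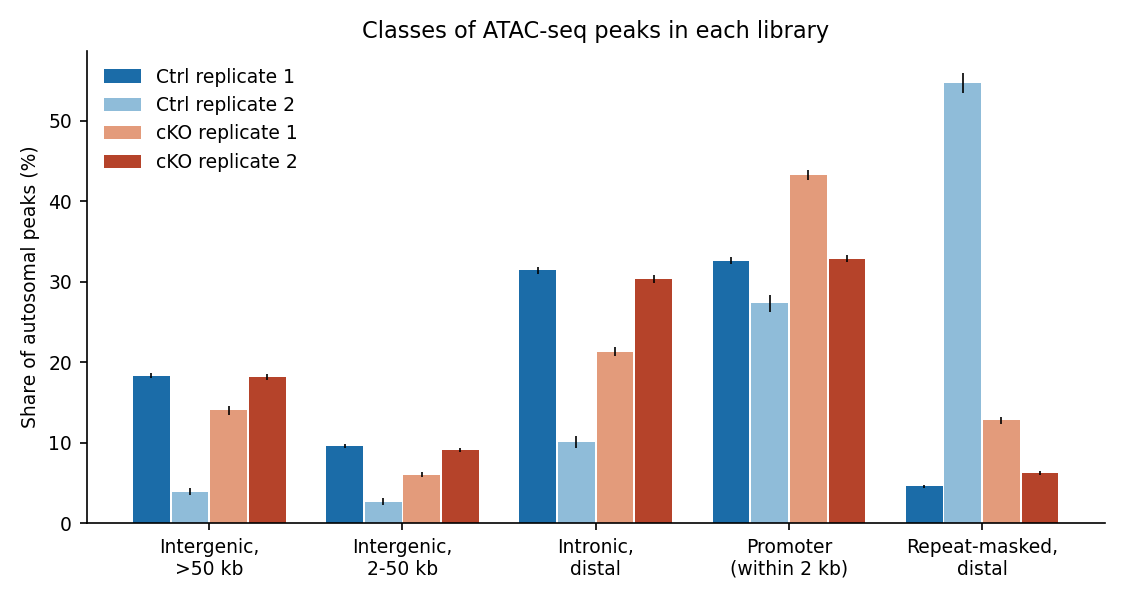
Share of the autosomal peaks of each library (%) that fell in 5 of the 7 classes, with 95% Wilson intervals; bars of 1 colour belong to 1 library. Intergenic peaks over 50 kb from genes made up 14.0 to 18.3% of 3 lists and 3.89% of that of Ctrl2, where repeat-masked distal peaks reached 54.7%.

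The number of far intergenic peaks differed between genotypes by less than the spread between libraries. It was 5358.5 ± 3496.6 in cKO (mean ± SD, n = 2) and 4254.5 ± 5661.8 in Ctrl (n = 2), so that the difference of 1104 lay within the spread of either group (exact two-sided permutation test, p = 1). Their share of the list was 16.1 ± 2.95% in cKO and 11.1 ± 10.2% in Ctrl, a difference of 4.97 percentage points (exact permutation p = 1). Without Ctrl2 both differences turned, to −2899.5 peaks and −2.25 points. Without cKO2 the difference in number turned to −1368.5, and without the filter on soft-masked bases the difference in share turned to −4.69 points. In lists of equal size both measures were higher in both cKO libraries, with 745 and 763 members (11.5 and 11.8%) in cKO1 and cKO2 and 550 and 251 (8.52 and 3.89%) in Ctrl1 and Ctrl2, differences of 353.5 peaks and 5.47 points (exact permutation p = 0.33 each). When repeat-masked peaks were removed first, an alternative chosen after seeing the data, the groups overlapped again and the differences were 36 peaks and 1.32 points (exact permutation p = 1 each). With 2 libraries per group the smallest p this test can give is 0.33, and Benjamini-Hochberg adjusted values over the 6 tests were 1 for these 2 results.

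Most far intergenic peaks were of modest height. The fragments covering the summit had a median of 16 in Ctrl1, 18 in Ctrl2, 17 in cKO1 and 18 in cKO2, and the lowest members rested on 7, 12, 9 and 8 fragments, so that a single peak is known only within wide counting error. Scaled depth, the fragments at the summit over the genome-wide mean of that library, puts the libraries on one scale. Its median over members was 9.86 in Ctrl1, 5.20 in Ctrl2, 8.20 in cKO1 and 9.96 in cKO2. Promoter peaks were deeper at the median, at 17.9, 5.77, 10.6 and 16.1 in the same order. The typical far intergenic peak thus lay in the lower part of its list, at the percentile of 41.0, 35.1, 42.1 and 42.1 among autosomal peaks.

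The median scaled depth was 9.08 ± 1.25 in cKO (n = 2) and 7.53 ± 3.30 in Ctrl (n = 2), a difference of 1.55 (exact permutation p = 0.667, adjusted p = 1). The groups overlapped, since the 2 highest medians came from 1 library of each genotype, and without Ctrl2 the difference was −0.784. In lists of equal size the difference was 2.79, with medians of 13.5 and 29.3 in cKO1 and cKO2 and 32.1 and 5.20 in Ctrl1 and Ctrl2. When repeat-masked peaks were removed first, an alternative chosen after seeing the data, it was 5.11. Peaks 2 to 50 kb from genes had median depths of 9.25, 5.77, 7.71 and 9.41, in the order Ctrl1, Ctrl2, cKO1 and cKO2. Far intergenic peaks were higher by 0.269 ± 0.567 (mean ± SD of the differences, n = 4), in 3 of 4 libraries (exact sign-flip permutation p = 0.50, adjusted p = 1). This small difference changed sign under stricter settings, to −0.711 in lists of equal size and to −0.168 at a −log10 q of at least 5. Depth did not step at the limit of the rule either: the 268 members of Ctrl1 at 50 to 55 kb from a TSS had a median of 9.86 and its 281 peaks at 45 to 50 kb one of 9.25, cKO2 had 9.41 over 270 and 9.96 over 252, cKO1 had 7.71 over 89 and 7.71 over 93, and Ctrl2 had 6.06 over 11 and 4.91 over 3.

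Far intergenic peaks held fewer CpG than promoter peaks, as did intergenic peaks 2 to 50 kb from genes and intronic distal peaks. CpG is the dinucleotide that the CxxC finger of KDM2B recognises. Within 150 bp on either side of the summit the median member held 3 CpG in Ctrl1 and both cKO libraries and 2 in Ctrl2, against 2 to 4 in intergenic peaks 2 to 50 kb from genes, 1 to 4 in intronic distal peaks and 22 to 25 in promoter peaks. Peaks overlapping a CpG island were left out of each of these distal classes but not of the promoter peaks. Part of this gap is therefore set in advance. Median GC content was 45.2% in Ctrl1, 48.5% in Ctrl2, 46.5% in cKO1 and 45.8% in cKO2, below the 49.2 to 50.2% of peaks 2 to 50 kb from genes in each library. Peaks were narrow, with median widths of 400.5, 405, 351 and 388 bp in the same order.

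The regions spread over a large part of the genome. Territory that fulfilled the rule covered 795.1 Mb, 33.2% of the autosomes, of which 486.0 Mb were not soft-masked. Members lay at 17 per Mb of unmasked territory in Ctrl1, 16.1 in cKO2, 5.94 in cKO1 and 0.516 in Ctrl2. Intergenic peaks 2 to 50 kb from genes lay at 19.6, 17.8, 5.66 and 0.782 per Mb, so that the density near genes was 1.15, 1.11, 0.953 and 1.51 times that far away, in the same order. On single chromosomes the density ranged from 14.7 (chromosome 14) to 19.5 per Mb (chromosome 18) in Ctrl1.

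Within this territory, density was lower at a greater distance from the nearest protein-coding TSS. In Ctrl1 it was 22.6 ± 0.488 members per Mb (± counting error) at 50 to 100 kb, 20.9 ± 0.436 at 100 to 200 kb, 16.9 ± 0.331 at 200 to 500 kb, 10.4 ± 0.345 at 500 to 1000 kb and 7.78 ± 0.441 beyond 1000 kb. In cKO2 it went from 21.3 ± 0.473 to 7.35 ± 0.429 and in cKO1 from 7.19 ± 0.275 to 2.80 ± 0.265. Ctrl2, with 7 members beyond 1000 kb, went from 0.727 ± 0.0875 to 0.175 ± 0.0662. The outermost bin was the lowest in each of the 4 libraries, and the decline began beyond 200 kb in cKO1 and Ctrl2.

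**Figure D2:**
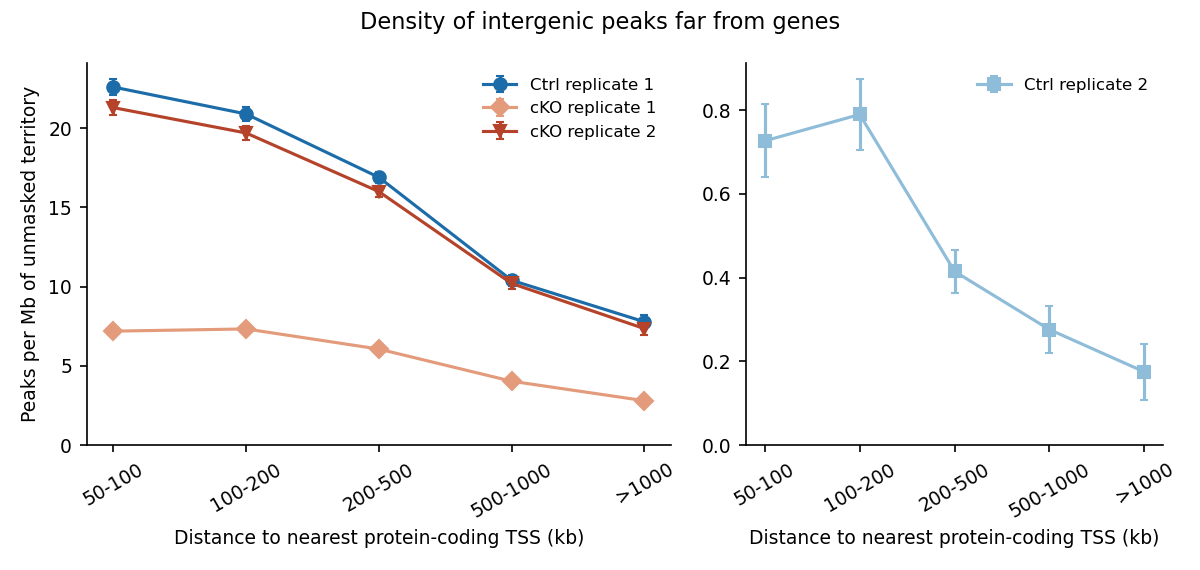
Far intergenic peaks per Mb of unmasked territory against the distance to the nearest protein-coding TSS (kb); bars are counting error, and Ctrl2 has a y axis of its own. Density declined from 22.6 to 7.78 per Mb in Ctrl1 and from 21.3 to 7.35 in cKO2 between the nearest and the farthest bin.

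Regions lay at a mean of 21.2 per Mb of unmasked territory. Their spacing under random placement was not computed. The median distance to the next far intergenic region was 20.8 kb, 31.6% had another within 10 kb and 85.8% within 100 kb. The richest window of 1 Mb was chr4:8291788-9291787 with 31 regions, of which 15 were nearest to Clvs1, which encodes a lipid-binding protein of clathrin-coated vesicles, and 8 to Chd7, which encodes a chromatin remodeller. The window chr12:12176339-13176338 held 30, of which 19 were nearest to Mycn, a proto-oncogene that drives progenitor growth, and chr2:178507467-179507466 held 30, divided evenly between the adhesion genes Cdh4 and Cdh26. In these 3 windows, Ctrl1 had peaks in 21, 26 and 19 of the regions, cKO2 in 27, 25 and 21, cKO1 in 9, 12 and 6 and Ctrl2 in 1, 0 and 3.

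Members shared with more lists were deeper in 3 of the 4 libraries. Of the members of cKO1, 98.0% overlapped a peak of another list (by at least 1 bp), as did 77.5% in cKO2, 72.8% in Ctrl1 and 66.1% in Ctrl2. Over all autosomal peaks the shares were 96.9, 81.5, 76.2 and 76.7%. In Ctrl1 the median scaled depth was 6.78 in members found in no other list, 9.25 with 1 other list, 16.6 with 2 and 35.4 with all 3. The same series in cKO2 ran 7.20, 9.41, 16.6 and 36.0, and in cKO1 it ran 5.78, 6.27, 8.20 and 17.4, whereas in Ctrl2 it ran 4.62, 6.21, 5.20 and 5.48 without such order.

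Compared with peaks 2 to 50 kb from genes, far intergenic peaks were shared with another list more often in 4 of 4 libraries. The difference was 2.81 ± 1.75 percentage points (mean ± SD, n = 4), which did not pass the threshold (exact sign-flip permutation p = 0.13, the smallest that 4 libraries can give, adjusted p = 0.375). Within libraries the peaks near genes had shares of 67.5% in Ctrl1, 64.0% in Ctrl2, 96.6% in cKO1 and 75.2% in cKO2. In lists of equal size the difference was 9.21 points. At a −log10 q of at least 5 it was 1.17 points (exact permutation p = 0.75), and it then ran the other way in Ctrl2 (60.2% of members against 61.7% near genes) and cKO1 (98.9% against 99.4%).

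The largest groups of regions were shared across genotypes or held by 1 long list, much as over all autosomal regions. Of the 10302 regions, 3292 (32.0%; 27.3% of all autosomal regions) were held by Ctrl1 and cKO2 alone, 2554 (24.8%; 26.2% of all) by Ctrl1 and both cKO libraries, 2243 (21.8%; 18.9% of all) by Ctrl1 alone and 1759 (17.1%; 14.1% of all) by cKO2 alone. Thus 98.4% of the regions had a peak in Ctrl1 or cKO2, the libraries with the longest lists. cKO1 alone held 58 regions (0.563%, against 1.13% of all) and Ctrl2 alone 85 (0.825%, against 2.66% of all). Regions in all 4 lists numbered 122 (1.18%), against 5.39% of all autosomal regions. Over the 5974 regions shared by Ctrl1 and cKO2 the median log2 ratio of scaled depth (cKO2 over Ctrl1) was 0.00 (quartiles −0.28 and 0.29), with a Spearman correlation of 0.77 across regions, which are not independent replicates. The 2 cKO libraries differed more: over 2772 regions the median log2 ratio of cKO2 to cKO1 was 0.99 (0.69 and 1.25).

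Regions with a peak in cKO1 and cKO2 but in no Ctrl list numbered 78 of 10302 (0.757%), where 0.693% of all autosomal regions had this pattern. Regions with a peak in Ctrl1 and Ctrl2 but in no cKO list numbered 3 (0.0291%), against 0.287% of all regions. Each count depends on single lists. Without Ctrl2 the Ctrl-held regions numbered 2248 and the cKO-held 92. Without Ctrl1 the cKO-held numbered 2624 and the Ctrl-held 88. Their difference thus went from 75 to −2156 and to 2536. It was 1826 without cKO1 and 127 without cKO2. In lists of equal size the cKO-held numbered 148 and the Ctrl-held 0. Without the filter on soft-masked bases these counts were 107 and 58. The matching shares of all autosomal regions were not computed for these alternatives. The 78 regions were shallow, with median scaled depths of 6.75 in cKO1 (14 fragments) and 9.13 in cKO2 (16.5 fragments), against 8.20 and 16.9 in the 2554 regions that Ctrl1 also held.

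Depth in shared regions was compared likewise. Among the 122 regions in all 4 lists, scaled depth was higher in both cKO libraries than in both Ctrl libraries in 4 (3.28%; 8.34% of all 3058 autosomal regions in 4 lists) and lower in 3 (2.46%; 3.73% of all). Among the 2676 regions in Ctrl1 and both cKO lists, 85 (3.18%) were higher in both cKO libraries than in that 1 Ctrl library, where 5.37% of 17892 regions were, and 1211 (45.3%) were lower, where 61.3% were. The depth of cKO1 was below that of Ctrl1 in most shared regions, with a median log2 ratio of −0.96 in members (n = 2729) and −1.16 in all autosomal regions (n = 18307).

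The strongest far intergenic regions carried sequence that is present elsewhere in the genome. The strongest in each of the 4 lists was chr12:97061434-97061776, 1197.9 kb from the TSS of Galc, a lysosomal enzyme gene. Its scaled depth was 2161.9 in Ctrl1, 518.2 in Ctrl2, 1414.4 in cKO1 and 1874.8 in cKO2. It aligned to the mitochondrial genome at 99.7% identity over 343 bp, and the window of 100 bp on either side of its summit had 6 other copies (at least 90% identity over at least 80% of the window). Mitochondrial reads were removed by the authors, and the part of such copies in this depth was not tested.

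The next regions in all 4 lists were far lower. The one near Alkbh8, a transfer RNA modifier gene, had 220.1 in Ctrl1, 48.2 in Ctrl2, 156.7 in cKO1 and 162.2 in cKO2, and 1 other copy. The one near Arhgef26 had 183.1, 39.3, 119.1 and 129.5 in the same order, and 1 other copy. The one near Pdia4, which encodes a protein disulphide isomerase, had 85.7, 137.4, 123.9 and 111.8, and 17 other copies. It ran against the others in being highest in Ctrl2. The region near Zfp608, a zinc finger gene, had 117.1, 24.2, 69.9 and 80.3, and 15 other copies. Copies were sought only in the assembled chromosomes and the mitochondrial genome, so each count is a lower bound.

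The strongest member with a single-copy sequence in Ctrl1 and cKO2 was chr13:84347839-84348570, 125.8 kb from the TSS of Tmem161b, which encodes a membrane protein. Its scaled depth was 92.5 in Ctrl1, 9.81 in Ctrl2, 40.0 in cKO1 and 96.9 in cKO2. Ctrl1 and cKO2 were thus alike and the other 2 libraries lower. Its window, printed above, holds 6 CpG and has a GC content of 59.4%.

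**Figure D3:**
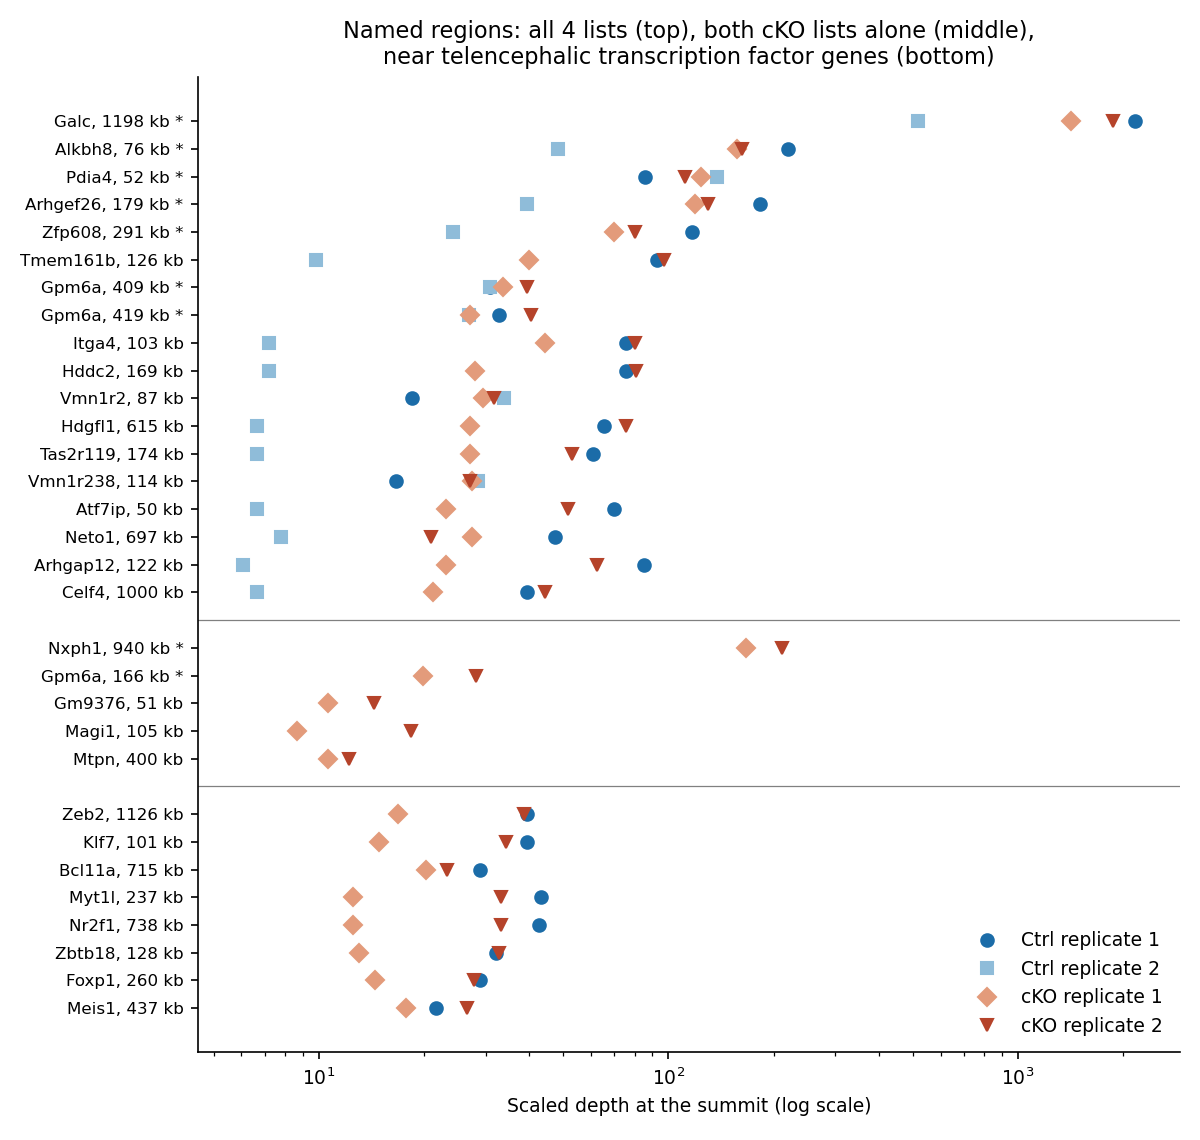
Scaled depth at the summit (log scale) of named regions, 1 symbol per library, labelled by the nearest protein-coding gene and the distance to its TSS; a star marks a sequence with another copy in the genome. Most single-copy regions had Ctrl1 and cKO2 close together, cKO1 lower and Ctrl2 lowest or without a peak.

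Another copy in the genome was found for 261 of 10302 regions (2.53%, 95% Wilson interval 2.25 to 2.86%), against 5.24% (4.68 to 5.86%) of regions 2 to 50 kb from genes. Copies were found through seeds outside soft-masked bases, so that repeats are undercounted. Copies missing from the assembled chromosomes were not counted at all. The share was 27.9% (34 of 122) in regions of all 4 lists and 0.901% (23 of 2554) in those of Ctrl1 and both cKO lists. Regions with a peak in Ctrl2 had another copy in 118 of 274 (43.1%), and those held by that library alone in 51 of 85 (60%), against 1.46% with a peak in Ctrl1, 3.31% in cKO1 and 1.96% in cKO2. Without copied sequences the highest member of each list dropped to a scaled depth of 92.5 in Ctrl1, 28.6 in Ctrl2, 54.0 in cKO1 and 96.9 in cKO2. The medians differed less. With and without another copy they were 10.5 and 9.86 in Ctrl1, 6.35 and 4.62 in Ctrl2, 8.20 and 8.20 in cKO1 and 9.41 and 9.96 in cKO2.

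The regions held by both cKO lists alone numbered 78, and 4 of them had another copy in the genome. The strongest was chr6:9889950-9890149, 940.3 kb from the TSS of Nxph1, which encodes a neurexin ligand, with 166.8 in cKO1 and 211.4 in cKO2. It aligned to the mitochondrial genome at 99% identity over 200 bp and had 6 other copies, and its printed window is nearly the reverse complement of that of Galc. The region near Gpm6a, a neuronal membrane glycoprotein gene, had 19.8 and 28.2 in these libraries, and 29 other copies.

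The single-copy regions of this pattern named here were lower than those near Nxph1 and Gpm6a. The region near Gm9376 had 10.6 in cKO1 and 14.4 in cKO2, that near Magi1, a scaffold protein of cell junctions, had 8.68 and 18.3, and that near Mtpn, a small ankyrin-repeat protein gene, had 10.6 and 12.2. These rest on 18 to 33 fragments. The 3 regions held by both Ctrl lists alone were near Khdrbs3, an RNA-binding protein gene (8.01 in Ctrl1 and 6.64 in Ctrl2), Klhl29 (5.55 and 6.93, with 6 other copies) and Xylt1, an enzyme of proteoglycan synthesis (5.55 and 6.93, with 18 other copies).

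Some regions lay megabases from any coding gene. The farthest with a peak in at least 3 lists was chr14:82207995-82208332, 2207.8 kb from the TSS of Olfm4, a secreted glycoprotein gene, with a scaled depth of 14.8 in Ctrl1, 8.20 in cKO1 and 15.5 in cKO2. A region 2194.8 kb from Pik3c3, a lipid kinase gene of autophagy, had 16.0, 8.20 and 13.3, and another 2046.3 kb from it had 32.7, 15.4 and 39.9. One at 2085.7 kb from Pcdh17, a protocadherin gene, had 6.06 in Ctrl2, 4.34 in cKO1 and 4.43 in cKO2, which is at or near the lowest depth of the cKO lists. Regions more than 1000 kb from a coding TSS made up 3.84% of the total, and the farthest in any list lay at 2569.2 kb.

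Motif matches were counted within 150 bp on either side of each summit, on both strands, for 14 motifs chosen after the data were seen. They were compared with windows of the same length 3 kb to either side of the summit (flanks), of which those under 50% soft-masked were kept, and with peaks 2 to 50 kb from genes. The NFI half-site TTGGCA was present in 41.5% of far intergenic peaks in Ctrl1, 15.5% in Ctrl2, 43.8% in cKO1 and 42.1% in cKO2. Flanks held it in 15.9, 16.7, 15.8 and 15.4%, and all autosomal peaks in 28.8, 8.35, 24.2 and 29.0%. The excess over flanks was 19.8 ± 14.0 points (n = 4), in 3 of 4 libraries (exact sign-flip permutation p = 0.25, adjusted p = 0.304 over 28 motif tests), and 26.8 points without Ctrl2.

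The share of peaks with an NFI half-site was next set beside that of peaks closer to genes. Peaks 2 to 50 kb from genes held it in 33.6% in Ctrl1, 10.5% in Ctrl2, 37.3% in cKO1 and 35.3% in cKO2, and intronic distal peaks in 38.3, 9.86, 41.3 and 39.3%. The difference from peaks 2 to 50 kb from genes was 6.56 ± 1.16 points, in 4 of 4 libraries (exact sign-flip permutation p = 0.13, the smallest possible, adjusted p = 0.206). A test over 4 libraries cannot reach 0.05. By genotype, the share in Ctrl1 lay just below those of both cKO libraries and that in Ctrl2 far below.

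Matches to the NFI half-site concentrated at the summit. Per 100 members, the 50 bp bins on either side of the summit held 12 and 13.8 matches in Ctrl1, 12 and 13.0 in cKO1 and 12.1 and 13.3 in cKO2, against 1.98 to 2.77 in the outermost bins, close to 1 kb away. Ctrl2 had 3.98 and 4.38 at the summit and 3.98 and 3.19 in the outermost bins. The share was also lowest in the shallowest members in 3 libraries: over 4 groups of members of equal size, from low to high scaled depth, it was 34.8, 39.9, 44.8 and 46.4% in Ctrl1, 38.6, 42.8, 48.0 and 45.9% in cKO1 and 34.5, 39.3, 45.9 and 48.7% in cKO2, so that it was highest in the deepest group in Ctrl1 and cKO2 and in the third group in cKO1. Ctrl2 showed 12.7, 22.2, 14.3 and 12.9% over groups of 62 or 63 peaks. Median GC content over the 4 groups of Ctrl1 moved from 44.5 to 46.2%.

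**Figure D4:**
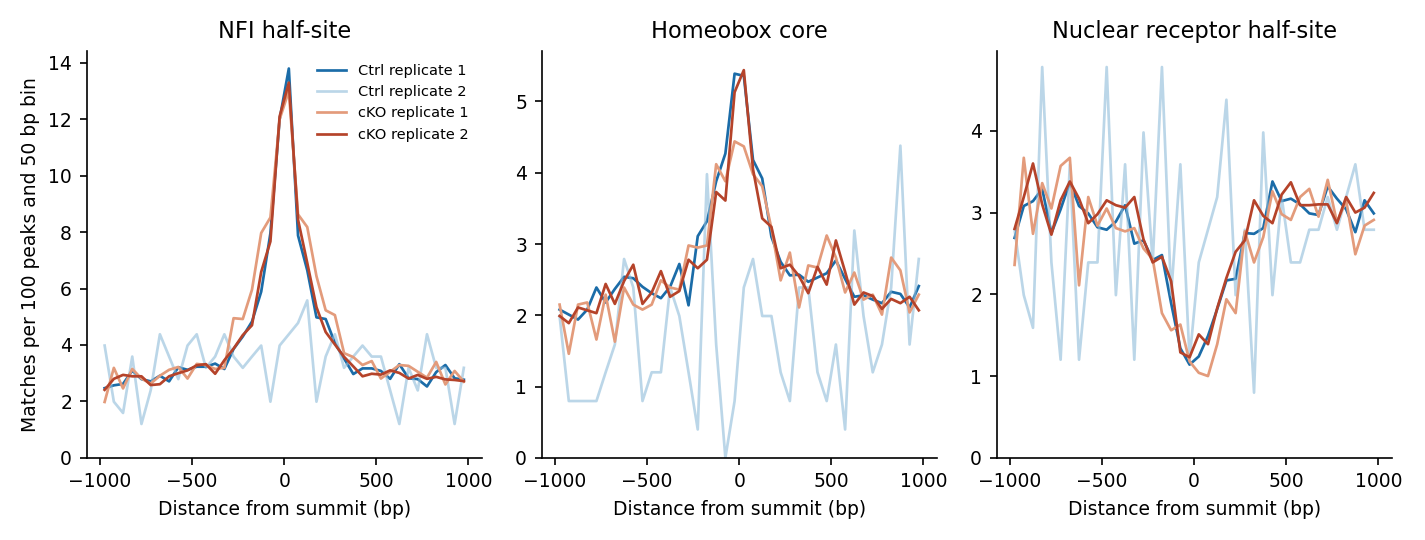
Motif matches per 100 far intergenic peaks in bins of 50 bp against distance from the summit (bp), 1 line per library, for the NFI half-site (left), the homeobox core (middle) and the nuclear receptor half-site (right). NFI matches peaked at 12 to 13.8 in 3 libraries, homeobox matches at 4.44 to 5.44, and nuclear receptor matches dipped at the summit; Ctrl2, with 251 peaks, is noisy.

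E-boxes were frequent too. CAGCTG was present in 25.6% of members in Ctrl1, 11.6% in Ctrl2, 27.6% in cKO1 and 25.9% in cKO2, with flanks at 11.6, 8.99, 10.7 and 11.2% and all peaks at 22.9, 13.3, 20.4 and 23.3%. CAGATG, the form preferred by NEUROD and NEUROG proteins, was in 37.1, 23.5, 37.6 and 39.3%, with flanks at 22.0, 22.5, 21.5 and 22.4% and all peaks at 27.4, 17.4, 23.6 and 28.8%. Both exceeded flanks in 4 of 4 libraries, by 12 ± 6.44 and 12.3 ± 7.54 points (exact sign-flip permutation p = 0.13 each, adjusted p = 0.206). Against peaks 2 to 50 kb from genes, CAGATG differed by 4.50 ± 3.04 points in 4 of 4 libraries and CAGCTG by 0.965 ± 2.19 points in 2 of 4 (exact permutation p = 0.13 and 0.50).

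The homeobox core TAATTA was found in 21.7% of members in Ctrl1, 7.17% in Ctrl2, 19.7% in cKO1 and 20.5% in cKO2. Peaks 2 to 50 kb from genes held it in 14.0, 2.91, 13.3 and 14.0%, intronic distal peaks in 17.6, 4.16, 15.9 and 16.1%, flanks in 11.5, 10.8, 11.4 and 11.7% and all peaks in 12.5, 2.93, 8.66 and 11.4%. The difference from peaks near genes was 6.24 ± 1.43 points in 4 of 4 libraries (exact sign-flip permutation p = 0.13, adjusted p = 0.206). The core consists of A and T alone, and the GC content of members was lower than that of peaks near genes, as given above; its part in the difference was not tested. The flanks, with a median GC content of 41.5 to 43.2%, were lower in GC than members in each library.

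Other motifs of neural factors differed less from flanks in percentage points, though not always as a ratio. MEIS (TGACAGC) was in 8.89% of members in Ctrl1, 8.37% in Ctrl2, 9.53% in cKO1 and 9.03% in cKO2, against 4.50 to 4.90% of flanks and 7.95 to 10.0% of all peaks. Its excess over flanks was 4.29 ± 0.503 points, in 4 of 4 libraries (exact permutation p = 0.13, adjusted p = 0.206). As a ratio of members to flanks, MEIS stood at 1.82 to 2.10, beside 1.05 to 1.76 for CAGATG. ZIC (CAGCAGG) was in 13.9, 9.56, 13.7 and 13.8%, and exceeded flanks in 3 of 4 libraries; all peaks held it in 5.81 to 13.5%. Against peaks 2 to 50 kb from genes MEIS differed by 1.92 ± 2.48 points, higher in 3 of 4 libraries, and ZIC, at 15.1, 6.98, 15.9 and 15.9% in the peaks near genes, by −0.731 points, higher in 1 of 4 (exact permutation p = 0.25 and 0.625); without Ctrl2 these were 0.735 and −1.84 points. Motifs that contain CAGC (MEIS, ZIC and the E-box CAGCTG) can overlap, so their counts are not independent. The SOX motif CCATTGT (3.98 to 5.61% of members, flanks 4.77 to 6.88%, all peaks 4.30 to 6.18%) and the TCF/LEF motif ATCAAAG, through which Wnt signals act (2.39 to 5.86% of members, flanks 5.55 to 6.18%, all peaks 2.08 to 3.92%), differed from flanks by −0.399 ± 1.69 and −0.927 ± 1.51 points (exact permutation p = 1 and 0.25). SOX lay above flanks in 3 of 4 libraries and TCF/LEF in 1 of 4, and without Ctrl2, where 10 and 6 members had a match, the differences were 0.433 and −0.181 points. Against peaks 2 to 50 kb from genes, which held SOX in 2.33 to 4.82% and TCF/LEF in 0.581 to 4.60%, both were higher in members in 4 of 4 libraries, by 0.882 ± 0.657 and 1.60 ± 0.411 points (exact permutation p = 0.13 each, adjusted p = 0.206).

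The nuclear receptor half-site AGGTCA lay below its level in flanks in each library. It was present in 8.32% of members in Ctrl1, 8.37% in Ctrl2, 7.42% in cKO1 and 8.56% in cKO2, against 18.2, 16.4, 17.9 and 18.1% of flanks and 8.68, 7.23, 8.15 and 8.79% of all peaks. The difference from flanks was −9.48 ± 1.04 points, lower in 4 of 4 libraries, among them Ctrl2 (exact sign-flip permutation p = 0.13, adjusted p = 0.206). The remaining motifs were rarer or differed less from flanks. AP-1 (TGANTCA) was in 8.37 to 12% of members and 2.51 to 8.32% of all peaks. The POU octamer (ATGCAAAT) was in 1.59 to 3.75% and 2.38 to 2.62%. RFX (GTTGCCATG) was in 0.398 to 1.03% and 0.279 to 1.07%, and ETS (ACCGGAAG), a motif of promoters, in 0 to 0.243% and 1.13 to 2.09%. Against peaks 2 to 50 kb from genes, AP-1 differed by 2.11 ± 1.49 points and the POU octamer by 0.918 ± 0.509, higher in 4 of 4 libraries. The nuclear receptor half-site differed by −1.60 ± 0.782 points, lower in 4 of 4 (exact sign-flip permutation p = 0.13 for each, adjusted p = 0.206). RFX and ETS differed by −0.132 and −0.225 points.

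**Figure D5:**
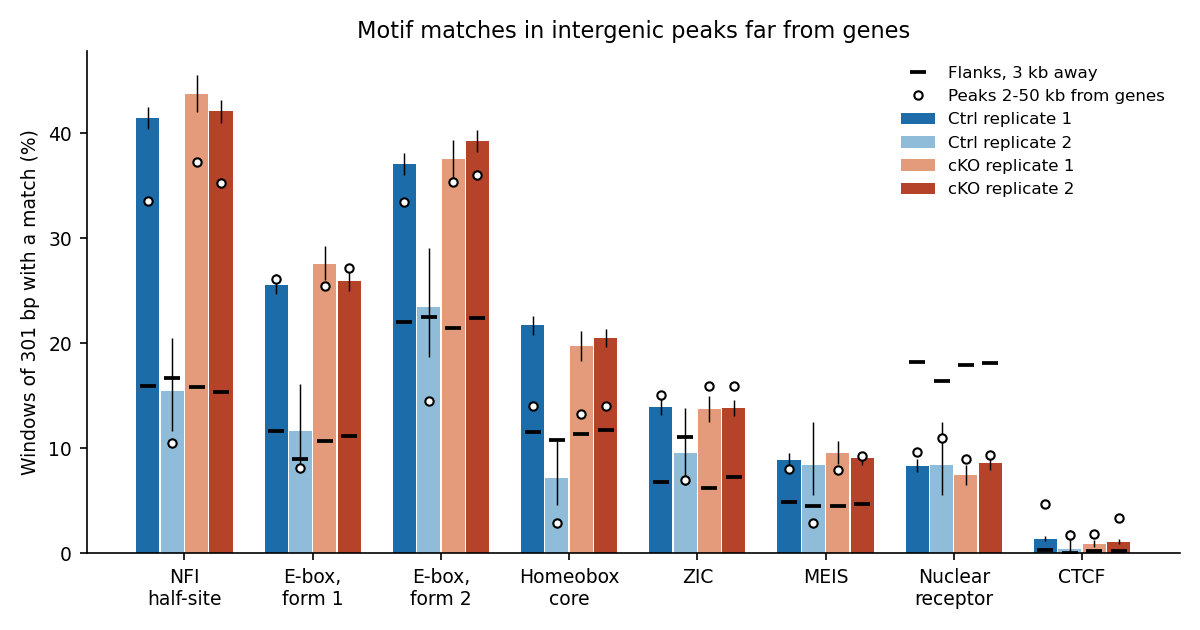
Share of windows (150 bp on either side of the summit) with a match (%) for 8 motifs in each library: bars are far intergenic peaks with 95% Wilson intervals, black dashes flanks 3 kb away and open circles peaks 2 to 50 kb from genes; E-box form 1 is CAGCTG and form 2 is CAGATG. NFI matches reached 41.5 to 43.8% in 3 libraries against flanks at 15.4 to 15.9%, and nuclear receptor matches lay below the flanks in all 4.

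CTCF matches were found in few far intergenic peaks. The motif was found in 1.37% of members in Ctrl1 (113 peaks), 0.398% in Ctrl2 (1 peak), 0.866% in cKO1 (25) and 1.07% in cKO2 (84). Peaks 2 to 50 kb from genes held it in 4.72, 1.74, 1.85 and 3.37%, flanks in 0.283, 0, 0.221 and 0.25% and all peaks in 2.16, 0.666, 1.23 and 1.73%. Intronic distal peaks held it in 2.08, 0.77, 1.11 and 1.63%. Members thus lay above flanks and below both classes nearer to genes in each library, closer to the intronic peaks. The difference from peaks near genes was −1.99 ± 1.06 points, lower in 4 of 4 libraries (exact sign-flip permutation p = 0.13, adjusted p = 0.375 over the 6 tests).

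Over merged regions, 137 of 10302 (1.33%) had a CTCF match, 24 of them in at least 3 lists. The strongest was chr9:23580258-23581583, 358.1 kb from the TSS of Bmper, a modulator of BMP signalling, with a scaled depth of 40.1 in Ctrl1, 16.4 in cKO1 and 32.1 in cKO2. The region near 1190002N15Rik had 29.0, 14.5 and 25.5 in the same order. It was followed by those near Reep3, which encodes a protein of the endoplasmic reticulum (25.3, 12.5 and 31.0), and Ghitm (28.4, 11.1 and 24.9), ranked by their mean percentile over the lists. All 4 lacked a peak in Ctrl2, and their windows had no other copy.

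The regions were also grouped by the nearest protein-coding gene. Of 72 genes of telencephalic transcription factors, 50 were nearest to at least 1 region, with 305 regions in all (2.96% of regions, in 2.81% of the unmasked territory). Factors of other tissues were nearest to 150 (1.46%, in 1.58% of the territory). Per Mb of their own territory this gave 22.4 and 19.5 regions, beside 21.2 over all genes. The shares of both lists thus stood close to their shares of territory.

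The genes of the telencephalic list with the most regions were Sox9, Bcl11a and Zeb2. Sox9, a factor of progenitors and glia, was nearest to 17, of which 11 had a peak in Ctrl1, 3 in cKO1 and 13 in cKO2. Bcl11a, a zinc finger factor of cortical neurons, was nearest to 15 within 784.8 kb (50.7 per Mb), with peaks in 13, 6 and 12 of them and 1 in Ctrl2. Zeb2, a repressor needed for neuronal differentiation, was nearest to 15 at up to 1716.0 kb (14.0 per Mb), with peaks in 14, 2 and 11. In the list of other tissues, Foxa2 and Gata3 had 9 regions each and Irx1 had 8.

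Single regions of the telencephalic set, picked as strong regions with a peak in Ctrl1 and both cKO libraries, had the following levels. The one at chr2:46242706-46243400, 1125.7 kb from the TSS of Zeb2, had a scaled depth of 39.5 in Ctrl1, 16.9 in cKO1 and 38.7 in cKO2. The region near Klf7, a factor of axon outgrowth, had 39.5, 14.9 and 34.3, and that 715.1 kb from Bcl11a had 29.0, 20.2 and 23.2. Ctrl1 was highest and cKO1 lowest in these 3.

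The region near Myt1l, a zinc finger factor of neurons, had 43.2 in Ctrl1, 12.5 in cKO1 and 33.2 in cKO2, and its printed window holds none of the 4 motifs. The region near Nr2f1, which patterns cortex and hippocampus, had 42.5 in Ctrl1, 12.5 in cKO1 and 33.2 in cKO2. The region near Zbtb18, a repressor of cortical development, had 32.1, 13.0 and 32.7 and carried 2 NFI half-sites and 2 CAGATG E-boxes in its printed window. That near Foxp1, a forkhead factor of neurons, had 29.0, 14.5 and 27.7 and 3 homeobox cores. That near Meis1, a homeobox factor, had 21.6, 17.8 and 26.6. None of these 5 regions had a peak in Ctrl2, and cKO1 was below Ctrl1 in each.

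The study had a particular interest in Wnt signalling, which governs growth and patterning of the hippocampus. Of 66 Wnt pathway genes, some of which (Tcf7l2, Lef1) are also among the telencephalic factors, 21 were nearest to at least 1 far intergenic region, with 58 regions in all (0.563% of regions, in 0.404% of the territory, 29.5 per Mb). Ctrl1 had a peak in 47 of them, cKO2 in 47, cKO1 in 16 and Ctrl2 in 0, beside 8273, 7842, 2901 and 274 of all 10302 regions. The receptor genes Fzd8 and Fzd1 led with 11 and 7 regions. The receptor gene Fzd7, Sfrp2, which encodes a secreted modulator, and Tcf7l2, a nuclear effector, had 4 each and Ctnnb1, which encodes beta-catenin, had 3.

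Values are given for 4 of the 58 regions, which were chosen for a peak in Ctrl1 and both cKO libraries, so that they do not compare the genotypes. The region 271.8 kb from Fzd1 had 37.6 in Ctrl1, 18.8 in cKO1 and 34.9 in cKO2, and another 261.7 kb from it had 24.7, 10.6 and 18.3. The region near Sfrp2, 279.8 kb away, had 25.9, 14.0 and 27.1. That near Ctnnb1 had 19.7, 12.5 and 24.9. In all 4, cKO1 lay below Ctrl1, and cKO2 lay above it in 2.

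Adhesion and axon guidance genes, which often border gene deserts, were nearest to 631 regions (6.13%) in 9.87% of the unmasked territory, or 13.2 per Mb. Their regions were also farther away, at a median of 526.9 kb against 181.9 kb over all regions. Adgrl2, an adhesion receptor gene of synapses, was nearest to 27, Tenm4, a teneurin gene, to 26 and the cadherin gene Cdh11 to 20. Over all genes, Zfp608 had the most with 31 (46.5 per Mb), with peaks in 28 in Ctrl1, 1 in Ctrl2, 10 in cKO1 and 25 in cKO2. It was followed by Map3k7, which encodes the kinase TAK1, with 29.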

How the data were processed

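Each library was deposited as 1 list of peaks. Per the study's methods and the submitters' processing notes, the authors used cutadapt for trimming and Bowtie2 for alignment to mm10, removed blacklisted, mitochondrial and duplicate reads (SAMtools, Picard), shifted for the Tn5 offset and called peaks with MACS2 2.2.7.1 per library, without control or pooling. The deposited lists give a fold enrichment (a ratio of depth to local background), −log10 p-values and −log10 q-values by the authors; the deposited score was not used. Lists called separately do not share a threshold.

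Fragments at a summit were recovered as whole numbers from fold and −log10 p (within 0.01 for at least 99.986% of peaks) and divided by the lowest background of the list, which stands for the genome-wide mean, to give scaled depth. This scale was not checked against reads. Genes came from the basic set of GENCODE M21 (55450 genes, 21951 protein-coding, 77237 TSSs). CpG islands (at least 200 bp, GC 50%, observed over expected 0.6; 16010) and soft-masked bases came from the GRCm38 sequence, and positions are 1-based. Peaks that overlapped by 1 bp were merged over lists into regions. A script tested on simulated data searched motifs, and blastn 2.17.0 searched copies.

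Groups were compared by exact two-sided permutation of 4 libraries, and classes within libraries by exact sign-flip permutation, with Benjamini-Hochberg adjustment over 6 tests (28 for motifs). Python 3.11.15, pandas 2.3.3 and scipy 1.17.1 were used. Members, gene lists and motifs were chosen with earlier results of these data known. Regions were named by rule: the strongest by mean percentile in all 4 lists (6), in both lists of 1 genotype alone (5 each) and with a CTCF match (4), the strongest of each list, the farthest (5), the 3 densest windows of 1 Mb and the 3 leading genes of each list. Regions beyond these, such as those near telencephalic and Wnt genes, were chosen after their values were seen. Alternatives covered list length, peak threshold, distance, island definition, soft-masking, mitochondrial-like sequence, overlap, motif window and each library left out.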

Additional observations from a re-analysis of the deposited data

How the results depend on the processing

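With 2 libraries per group none of the tested results passed 0.05 under any setting, so that only directions can be compared. Of the alternatives computed over 7 results, 91 kept the direction and 10 did not. Those that kept it include the replicate blocks described below, which could not change a direction. In lists cut to equal size the difference in depth between far intergenic peaks and peaks 2 to 50 kb from genes was −0.711, at a −log10 q of at least 5 it was −0.168 and with stricter CpG islands −0.0238; in lists of equal size after removal of repeat-masked peaks, an alternative chosen after seeing the data, it was −1.17. Without a filter on soft-masked bases the difference in share between cKO and Ctrl was −4.69 points. The count of regions in cKO1 and cKO2 but no Ctrl list, minus that of the reverse pattern, was 148 in lists of equal size and 49 without the filter on soft-masked bases. The causes were not tested. Leaving out 1 library at a time gave −2899.5 to 5107.5 for the number of far intergenic peaks (cKO minus Ctrl), −2.25 to 12.2 points for their share, −0.784 to 3.88 for their median scaled depth and −2156 to 2536 for regions held by 1 genotype. Number turned without Ctrl2 (−2899.5) and without cKO2 (−1368.5), while share and depth turned without Ctrl2 (−2.25, −0.784). The difference in regions was −2156 without Ctrl2, but it then set regions in the 1 list of Ctrl1 against regions required in 2 cKO lists. Its sign is therefore not comparable. Within libraries the differences from peaks near genes stayed at 0.153 to 0.551 for depth, 3.22 to 4.42 points for sharing and −2.33 to −1.54 points for CTCF. The difference of SOX matches from flanks ranged from −0.806 to 0.433 points and turned without Ctrl2 (0.433), and that of ZIC matches from peaks near genes ranged from −1.84 to −0.236 points.

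Replicate numbers are shared by the groups but are not said to mark a litter or batch, and same-numbered libraries deviated in opposite directions (correlation −0.38 over 56723 regions). A replicate block cannot alter a difference of means in this balanced design. The differences stayed at 1104 peaks, 4.97 points and 1.55 in scaled depth (exact permutation p = 1 for each, with 2 pairs). The smallest p that this test can give with 2 pairs is 0.50. Neither this block nor one with crossed numbers, chosen after seeing the data, could thus change a call.

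The lowest members rest on 7 to 12 fragments, so that the height of a single peak is known only within wide counting error. In lists of equal size the members numbered 745 and 763 in cKO and 550 and 251 in Ctrl (exact permutation p = 0.33, the smallest possible); after removal of repeat-masked peaks the difference was 36 (exact permutation p = 1).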

Other observations

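The sex chromosomes were outside the comparisons. On the X chromosome, 195 of 1237 peaks met the rest of the rule in Ctrl1 (15.8%), 4 of 449 in Ctrl2 (0.891%), 42 of 678 in cKO1 (6.19%) and 188 of 1368 in cKO2 (13.7%). Their median scaled depths were 9.25, 3.90, 7.23 and 8.86 in the same order, a little below those of the autosomal members. On the Y chromosome 1 peak in Ctrl2 met the rule and 0 in the other 3 lists.

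A further 12 regions in all 4 lists, ranked after the 6 described and chosen after their values were seen, included 2 near Gpm6a whose sequence has 31 other copies, with scaled depths of 30.8 and 32.7 in Ctrl1 and 30.9 and 26.8 in Ctrl2. Single-copy regions near Itga4, an integrin gene, and Hddc2 had 75.8 each in Ctrl1, 7.22 each in Ctrl2, 44.4 and 28 in cKO1 and 80.3 and 80.8 in cKO2. A region near the vomeronasal receptor gene Vmn1r2 ran the other way, with 18.5 in Ctrl1 and 33.8 in Ctrl2, and 48.7% of its bases are soft-masked, close to the limit of the rule.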
